A study of Mus musculus with 4 samples.

Results

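The BCL-2 family genes examined here were 3 survival members (Mcl1, Bcl2 and Bcl2l1) and 7 death members (Bcl2l11, Bbc3, Pmaip1, Bid, Bik, Bax and Bak1). They were chosen by name, as every row of the deposited value tables whose nearest gene was one of them. The choice gave 10 of 26614 gene names and 58 of 80929 regions, and all 58 regions passed the filter on low values. The assay was ATAC-seq, in which a transposase inserts adapters into open DNA, so each value measures how often DNA of that region was cut. The cells were RAW264.7, a mouse macrophage-like line, seeded at 1000000 per well. Libraries titled CuNZ@Gel, a nanozyme hydrogel per the series title, numbered 2, and libraries titled Gel also numbered 2, all taken after 48 h with a hydrogel. The treatment text is identical for all 4 libraries and names CuNZ@Gel alone, so what Gel cells received rests on the titles. The labels give no genotype or other agent. Nothing in them tells if the 2 libraries of a group came from different cultures, so the p-values rest on a library-to-library spread that may be technical.

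BCL-2 proteins decide at the mitochondrial outer membrane whether a cell undergoes apoptosis. Survival members bind and restrain death members. BH3-only members sense stress and either block the survival proteins or activate BAX and BAK, which form pores that release cytochrome c and start the caspase cascade. MCL1 is a known survival factor of macrophages, and the balance between members is set partly by transcription of their genes. The comparison asks how accessibility near these genes differed between cells with CuNZ@Gel and cells with Gel.

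Promoter sequences are shown for Mcl1, the survival member with the most reads, and for Bax and Bak1, the pore-forming members, because the summed accessibility near all 3 was lower in CuNZ@Gel. Each is the 250 bases before the RefSeq start of the gene on GRCm38.p6, written 5′ to 3′ on the gene's strand, and a RefSeq window was matched for 8 of the 10 members. The windows are chr3:95658471-95658720 on the plus strand for Mcl1, chr7:45466899-45467148 on the minus strand for Bax and chr17:27028628-27028877 on the minus strand for Bak1. The ATAC-seq regions are on GRCm39, so no window was placed on a region. Capitals mark matches, on either strand, to the GC box GGGCGG, the CCAAT box CCAAT, the E-box CACGTG, the ETS core CGGAAG, the NRF1 site GCGCATGCG or the AP-1 site TGANTCA; no match overlapped another.
Mcl1: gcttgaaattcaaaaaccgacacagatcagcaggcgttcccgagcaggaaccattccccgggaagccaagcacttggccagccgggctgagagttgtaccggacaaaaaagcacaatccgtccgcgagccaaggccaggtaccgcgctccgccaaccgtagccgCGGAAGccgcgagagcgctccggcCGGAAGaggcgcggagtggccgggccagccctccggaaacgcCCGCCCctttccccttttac
Bax: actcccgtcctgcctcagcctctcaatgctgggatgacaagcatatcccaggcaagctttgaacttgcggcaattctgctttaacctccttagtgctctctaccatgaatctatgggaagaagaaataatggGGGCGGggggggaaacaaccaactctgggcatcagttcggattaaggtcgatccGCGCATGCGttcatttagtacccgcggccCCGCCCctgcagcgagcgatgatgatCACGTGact
Bak1: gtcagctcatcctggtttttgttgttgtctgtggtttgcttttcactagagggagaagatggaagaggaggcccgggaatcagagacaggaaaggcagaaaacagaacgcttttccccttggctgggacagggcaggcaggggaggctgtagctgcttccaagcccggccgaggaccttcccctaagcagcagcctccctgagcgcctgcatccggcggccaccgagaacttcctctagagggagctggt
The Mcl1 window holds 1 GC box and 2 ETS cores. The Bax window holds 2 GC boxes, 1 E-box and 1 NRF1 site, and the Bak1 window holds none of the 6 motifs. Among all 32851 promoter windows of this length, 32.7% hold the GC box, 33.8% the CCAAT box, 6.02% the E-box, 13.6% the ETS core, 1.45% the NRF1 site and 6.75% the AP-1 site. These matches describe letters and do not show binding.

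The 2 groups differed in library quality in the same direction for every library. Reads in regions numbered 7440939 and 10236653 in CuNZ@Gel, against 18843608 and 17915402 in Gel. Reads in regions per unit of genome background pileup, a value recovered from the authors' peak folds, and in units of 1000000, were 6.37 and 8.52 in CuNZ@Gel, against 18.8 and 18.6 in Gel. The treatment and this difference cannot be told apart in any result below. As to the labelled cell type, all 8 macrophage markers had regions, summing to 898 and 917 RPM (reads per 1000000 effective reads) in CuNZ@Gel against 1145 and 1150 RPM in Gel. Of these markers 6 were called lower and 1 higher, beside 36.1% of all genes lower and 20.5% higher. With the trend of change with level removed from regions (described below), 2 were lower and 3 higher, beside 15.4% and 20.7% of all genes. Summed markers of other cell types lay from 12.4 to 90.6 RPM in CuNZ@Gel and from 12.1 to 79.6 RPM in Gel. Of those 14 markers tested (18 listed), Kdr, Col3a1, Cd8a and Cdh1 were called higher and Epcam lower, and their part in the results was not tested. In accessibility, fewer cells with an open region and less opening per cell cannot be told apart.

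Summed accessibility was lower in CuNZ@Gel near 9 of the 10 members, survival and death members alike. The largest differences were near Bbc3, Bcl2l1, Pmaip1, Mcl1 and Bcl2l11, all 34.6% to 39.0% below Gel. Bcl2 was the one gene without a call. The count of 9 lower and 0 higher stands beside 36.1% of all 25900 genes called lower and 20.5% called higher (limma, Benjamini-Hochberg adjusted p under 0.05). The median change over the 10 members was -0.54 on the log2 scale, against -0.10 over all genes tested. Each gene value is the log2 of the RPM summed over its regions plus 1, changes are CuNZ@Gel minus Gel, and errors are SE from limma with 2 libraries per group. The groups did not overlap for 9 members, against 76.9% of all genes.

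**Figure D1:**
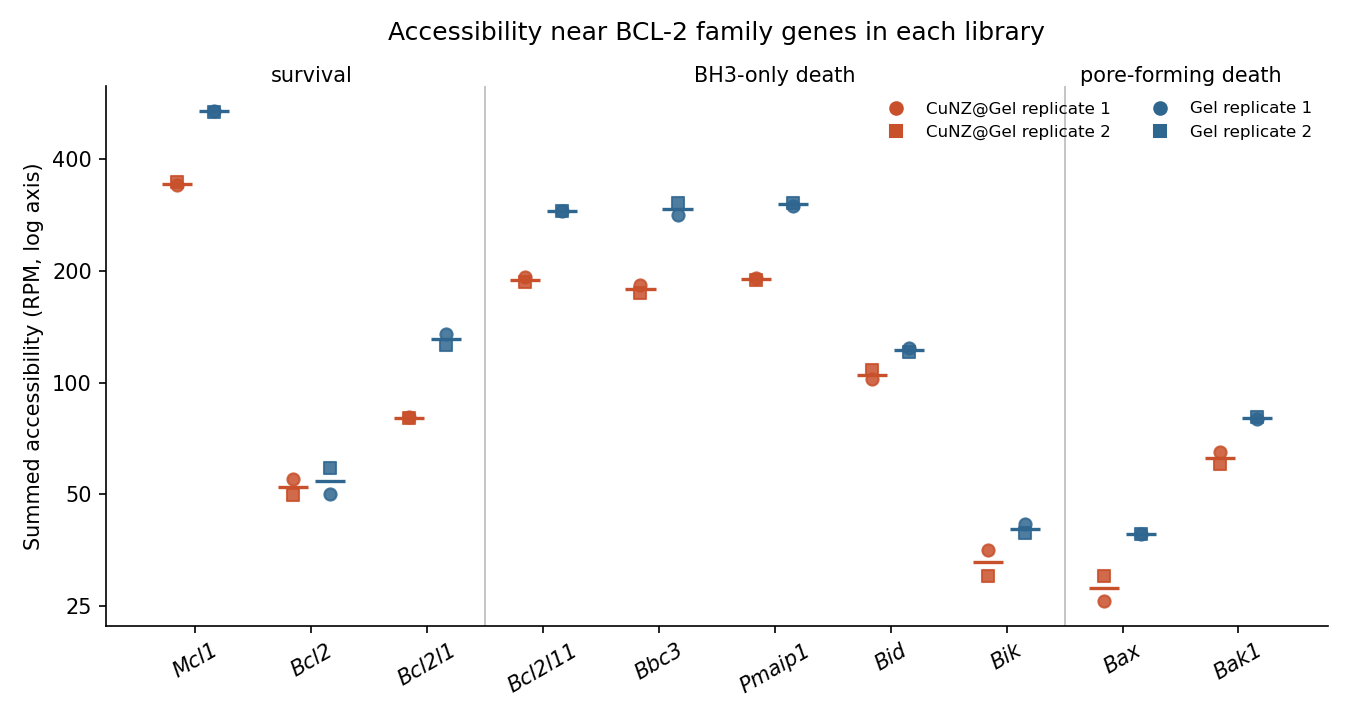
Summed accessibility near each BCL-2 family gene in RPM (log axis), with a point per library and a line at the mean of 2 libraries, CuNZ@Gel left of Gel. Both CuNZ@Gel libraries lie below both Gel libraries for every gene except Bcl2, whose CuNZ@Gel values of 54.8 and 49.6 RPM mix with Gel values of 49.98 and 58.8 RPM.

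Among the survival members, Mcl1 encodes a short-lived protein that restrains BAK. Regions near Mcl1 summed to 341 and 346 RPM in CuNZ@Gel, against 541 and 537 RPM in Gel. Replicates of a group lay within a few RPM of each other, far less than the gap between the groups, and the change was -0.65 ± 0.03 (limma adjusted p = 1.61e-11). Bcl2l1, which encodes BCL-XL, had 80.5 and 80.0 RPM in CuNZ@Gel and 135 and 126 RPM in Gel. It fell by 0.70 ± 0.06 (limma adjusted p = 1.35e-08), and the groups did not overlap. Bcl2, the founding member of the family, had 54.8 and 49.6 RPM in CuNZ@Gel and 49.98 and 58.8 RPM in Gel. Its groups overlapped and its change of -0.06 ± 0.09 did not pass (limma adjusted p = 0.630).

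Among the BH3-only members, Bcl2l11 encodes BIM, an activator that binds all survival proteins. It had 192 and 187 RPM in CuNZ@Gel, against 291 and 289 RPM in Gel, and fell by 0.61 ± 0.04 (limma adjusted p = 6.64e-10). Bbc3, which encodes the p53 target PUMA, had 183 and 175 RPM in CuNZ@Gel, against 282 and 305 RPM in Gel, and fell by 0.71 ± 0.05 (limma adjusted p = 3.79e-10). Pmaip1, which encodes NOXA, a partner of MCL1, had 191 and 189 RPM in CuNZ@Gel, against 300.2 and 305 RPM in Gel, and fell by 0.67 ± 0.04 (limma adjusted p = 1.73e-10). For these 3 genes the replicates of a group were close and the groups lay far apart. Bid links death receptors to mitochondria after caspase cleavage, and its sums were 102 and 108 RPM in CuNZ@Gel against 124 and 121 RPM in Gel. Its fall of 0.22 ± 0.06 passed the test (limma adjusted p = 0.00317), but none of its 8 regions did so alone. Bik, a BH3-only protein linked to the endoplasmic reticulum, had 35.4 and 30.04 RPM in CuNZ@Gel and 41.5 and 39.2 RPM in Gel. It fell by 0.30 ± 0.10 (limma adjusted p = 0.0163), and leaving out Gel replicate 1 or CuNZ@Gel replicate 2 ended that call.

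Both pore-forming members were lower. Bax had 25.7 and 30.03 RPM in CuNZ@Gel, against 39.1 and 39.0 RPM in Gel, and fell by 0.48 ± 0.10 (limma adjusted p = 0.000573). Bak1 had 64.9 and 60.2 RPM in CuNZ@Gel, against 79.6 and 80.6 RPM in Gel, and fell by 0.35 ± 0.07 (limma adjusted p = 0.000311). For both genes the groups were apart, with the CuNZ@Gel replicates the more spread.

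Compared as roles, 2 of 3 survival members and 7 of 7 death members were called lower. The median gene change was -0.65 for survival members and -0.48 for death members, a gap that rests on 3 and 7 genes and was not tested. Within a library, which removes any single scaling factor, survival RPM summed to 0.598 and 0.612 of death RPM in CuNZ@Gel and to 0.627 and 0.612 in Gel. The mean log2 difference between groups was -0.03, so the replicates of Gel differed from each other about as much as the groups did. Mcl1 made up most of the survival sum, so this ratio weighs Mcl1 above Bcl2 and Bcl2l1. Its part was 341 of 476 and 346 of 476 RPM in CuNZ@Gel. In Gel it was 541 of 726 and 537 of 722 RPM. Mcl1 relative to its partner gene Pmaip1 gave ratios of 1.78 and 1.84 in CuNZ@Gel and 1.80 and 1.76 in Gel, which overlap. Relative to Bcl2l11, Mcl1 gave 1.77 and 1.85 in CuNZ@Gel and 1.86 and 1.85 in Gel, also nearly alike. Mcl1 relative to Bak1 was lower, at 5.25 and 5.76 in CuNZ@Gel against 6.80 and 6.66 in Gel. Bcl2l1 relative to Bak1 was also lower, at 1.24 and 1.33 in CuNZ@Gel against 1.70 and 1.57 in Gel. Against Bax the survival members differed in direction. Bcl2l1 relative to Bax was lower, at 3.13 and 2.66 in CuNZ@Gel against 3.47 and 3.24 in Gel, and Bcl2 relative to Bax was higher, at 2.13 and 1.65 in CuNZ@Gel against 1.28 and 1.51 in Gel. Such ratios keep any trend of change with level. With that trend removed from regions, Mcl1 was at 0.04, Bcl2l1 at 0.02 and Bak1 at 0.07, close to each other. On that scale Bcl2 was at 0.05 and Bax at -0.21, so Bax was the lower of the 2 and also below Bcl2l1. With the trend removed from gene sums (described below), Mcl1 was at -0.15, Bcl2l1 at -0.29 and Bak1 at 0.01, further apart. Bcl2 was then at 0.27 and Bax at -0.27. With 2 libraries against 2, an exact two-sided permutation test of such a ratio cannot give a p below 1 in 3, so these are descriptions.

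Strong regions fell more than weak ones across the genome, and the number of members called depended on how that trend was treated. When it was removed from regions by cyclic loess, 2 members stayed lower and 0 were higher, beside 15.4% and 20.7% of all genes. The 2 were the BH3-only genes Bcl2l11, at -0.19 (limma adjusted p = 0.000806), and Pmaip1, at -0.27 (limma adjusted p = 1.04e-05). On that scale Mcl1 was at 0.04 (limma adjusted p = 0.280), Bcl2l1 at 0.02, Bbc3 at -0.01 and Bax at -0.21 (limma adjusted p = 0.113), none of them called. When the trend was removed from gene sums in place of regions, a setting chosen after the data were seen, 6 members were lower and 2 higher, beside 22.8% and 24.2% of all genes. The 2 higher members were Bcl2, at 0.27 (limma adjusted p = 0.0162), and Bid, at 0.20 (limma adjusted p = 0.00781). Bcl2l11 and Pmaip1 were called lower with deposited scaling and in both versions without the trend. When a gene's region log2 values were averaged in place of summing RPM, both lost their calls, with Bcl2l11 at 0.04 (adjusted p = 0.798) and Pmaip1 at -0.21 (adjusted p = 0.0820). Scaled to the background pileup, all 10 members were lower, from -1.09 for Bcl2 to -1.76 for Bbc3, beside 75.5% of all genes lower and 2.77% higher. That scaling rests on the background value that is less well supported in CuNZ@Gel.

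**Figure D2:**
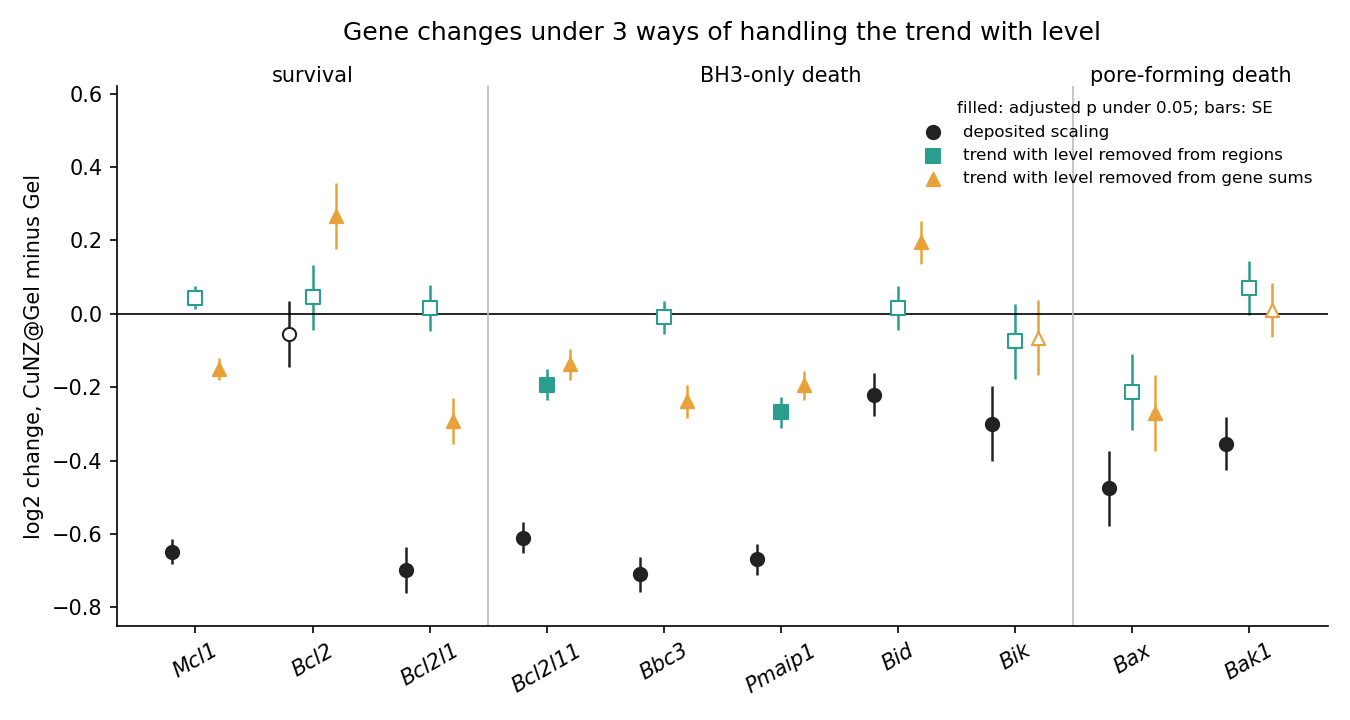
Change near each gene (log2, CuNZ@Gel minus Gel) with SE bars, for the deposited scaling and with the trend of change with level removed from regions or from gene sums. Filled points have a limma adjusted p under 0.05. Pmaip1 and Bcl2l11 are filled below 0 in all 3 versions, whereas Bid lies at -0.22, 0.02 and 0.20.

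Per kb of region, accessibility was highest near Mcl1 and Bcl2l1 and lowest near Bcl2 in both groups. In CuNZ@Gel the mean levels were 50.8 RPM per kb for Mcl1, 49.0 for Bcl2l1 and 39.6 for Bbc3, each apart from the next. Bak1, Bcl2l11, Bax, Bid and Pmaip1 followed between 25.9 and 23.2 RPM per kb, neighbours whose libraries overlapped, then Bik at 20.8 and Bcl2 at 14.1. In Gel, Bcl2l1 at 79.8 and Mcl1 at 79.6 RPM per kb overlapped, and Bbc3 at 65.0 came next. The remaining order in Gel was Bcl2l11 (38.8), Pmaip1 (37.0), Bax (34.2), Bak1 (33.2), Bid (27.2), Bik (25.7) and Bcl2 (14.6), with no overlap between neighbours.

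Region by region, the family was mixed. Of its 58 regions, 8 were called higher, 21 lower and 29 neither, beside 21.2% of all 77014 regions called higher and 21.9% called lower. The groups did not overlap in 42 of the 58, against 68.3% of all regions. The median region change was -0.21 for members and -0.00 for all regions. Of the 40 member regions at or above the median level of all regions (mean log2 value 2.559), 20 were lower and 5 higher, beside 40.3% and 17.4% of all regions that strong. Of the 18 weaker ones, 1 was lower and 3 were higher, beside 3.45% and 24.97% of all weaker regions. With the trend removed, 10 were higher and 9 lower, beside 18.8% and 13.8% of all regions, and 15 kept the same call as before.

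**Figure D3:**
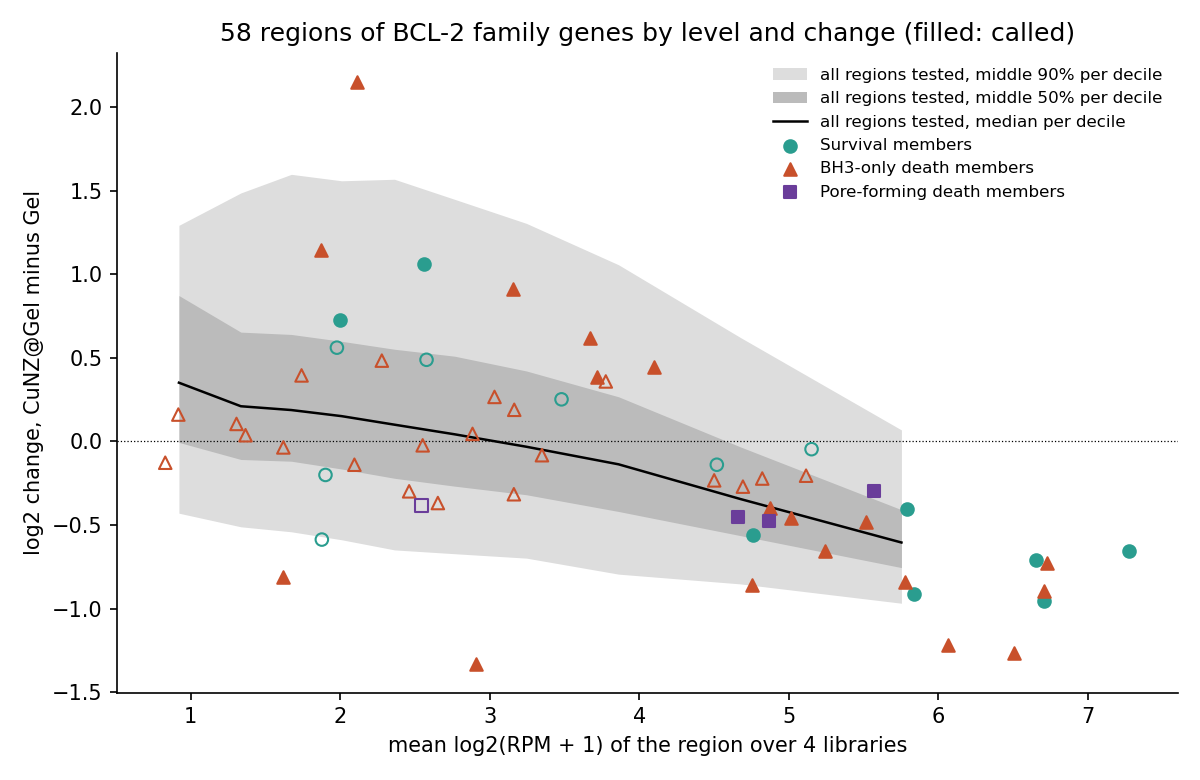
Each of the 58 member regions by its mean log2(RPM + 1) over 4 libraries (x axis) and its log2 change, CuNZ@Gel minus Gel (y axis), filled where called, over bands for all regions tested per decile of level. The median of all regions goes down with level, to -0.60 in the top decile, and the point highest above the bands is the Pmaip1 region that rose by 2.15.

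The strongest region of a gene held from 22.6% to 96.8% of its reads in CuNZ@Gel, and it was called lower for 9 members, all except Bid. Over all genes, the region of highest level was called lower in 40.1% and higher in 15.5%. With the trend removed, the strongest regions of Bcl2l11 and Pmaip1 were the ones still lower, and that of Mcl1 was called higher. Near Mcl1 it lay at chr3:95557596-95559057, with 120.0 and 125 RPM in CuNZ@Gel against 194 and 193 RPM in Gel, a change of -0.66 ± 0.06 (limma adjusted p = 1.57e-13), but with the trend removed it was at 0.23 (limma adjusted p = 0.00112), a call in the other direction. Near Bcl2l1 it lay at chr2:152672448-152673758 and held 96.8% of the gene's reads in CuNZ@Gel and 97.7% in Gel, so this gene rests on a single region; it fell by 0.71 ± 0.07. Near Bbc3, the region chr7:16042591-16044256 fell by 0.73 ± 0.07. Near Bax, chr7:45115786-45116606 fell by 0.48 ± 0.11, near Bak1 chr17:27246434-27248077 by 0.30 ± 0.09 and near Bik chr15:83419692-83420485 by 0.40 ± 0.11. The Bak1 call ended without Gel replicate 2 (-0.26, adjusted p = 0.133) and without CuNZ@Gel replicate 2 (-0.18, adjusted p = 0.1304), and the Bik call without Gel replicate 1 (-0.32, adjusted p = 0.124). The strongest Bid region, chr6:120878803-120879464, had 28.0 and 34.9 RPM in CuNZ@Gel and 35.0 and 37.5 RPM in Gel, a difference that did not pass (limma adjusted p = 0.126).

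The other regions varied in step at some genes and not at others. Around Mcl1 the 4 called falls ranged from -0.40 to -0.96 and lay at 0 to 8.04 kb from the strongest region. Under the lower Bid sum, 6 of its 8 regions were between -0.20 and -0.37 and the other 2 at 0.04 and 0.19, none of them called. Bak1 had both of its regions called lower, at -0.45 and -0.30. At Bax the weaker of 2 regions was at -0.38 and did not pass (limma adjusted p = 0.157), and at Bik the 2 weaker regions were at 0.10 and 0.05, so the Bik fall rested on its strongest region.

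Near 3 genes the strongest region held a share lower by over 10 percentage points in CuNZ@Gel. At Bcl2l11 it held 30.4% of the gene's reads in CuNZ@Gel and 48.4% in Gel. At Pmaip1 it held 22.6% in CuNZ@Gel and 33.5% in Gel, and at Bcl2 41.0% in CuNZ@Gel and 58.8% in Gel. For Mcl1, Bcl2l1, Bbc3, Bid and Bax the share differed by under 1 percentage point.

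In 5 genes, Pmaip1, Bcl2l11, Bbc3, Mcl1 and Bcl2, some regions were called higher and others lower. Among all genes 16.0% had calls in both directions, and among those with 4 or more regions 41.3% did. Of the 6 members with that many regions, 5 did, but the share over all genes was not matched for the number or level of regions. Pmaip1 had the widest range. Its region chr18:66571920-66572269 had 8.85 and 7.37 RPM in CuNZ@Gel, against 0.875 and 1.24 RPM in Gel, from 73 and 83 reads in CuNZ@Gel against 15 and 20 reads in Gel. It rose by 2.15 ± 0.25 (limma adjusted p = 3.42e-10). Regions were formed from peaks, and its only peak was in CuNZ@Gel, so it entered through the group where it is high. The p-value does not allow for that. Scaled to the background pileup, it was the single member region called higher (1.39), and 43 member regions were lower. Over all regions 4.85% were then higher and 60.6% lower. The region chr18:66604580-66604919 had 4.12 and 3.38 RPM in CuNZ@Gel, against 12.0 and 9.91 RPM in Gel, and fell by 1.33 ± 0.20 (limma adjusted p = 1.77e-07). The strongest Pmaip1 region, chr18:66590864-66592234, had 43.2 and 42.6 RPM in CuNZ@Gel against 101 and 101 RPM in Gel and fell by 1.22 ± 0.08. All 3 kept their calls with the trend removed.

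Opposite calls stood side by side at Pmaip1, in regions picked after their values were seen. The rising region lay 622 bases from chr18:66569718-66571297, which had 41.2 and 34.4 RPM in CuNZ@Gel, against 51.9 and 54.3 RPM in Gel, and fell by 0.48 ± 0.10. This neighbour was at -0.01 (limma adjusted p = 0.974) with the trend removed and was no longer called, so that pair of opposite calls ended. A second rising region, chr18:66586297-66586811, had 9.34 and 13.4 RPM in CuNZ@Gel, against 5.42 and 5.57 RPM in Gel, and rose by 0.91 ± 0.19. It lay 4052 bases from the strongest Pmaip1 region, which fell, and both calls held with the trend removed. Of 10 Pmaip1 regions, 2 were higher and 6 lower.

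At Bcl2l11, 3 of 14 regions were higher and 3 lower. The 3 higher ones lay at -70.8 to -58.5 kb from the centre of the strongest region, and a weak region called lower (-0.81 ± 0.28) lay close to them at -53.1 kb. The other 2 lower ones were the strongest region itself and its neighbour at 1.6025 kb. The region chr2:127907580-127907823 had 4.37 and 4.53 RPM in CuNZ@Gel, against 1.57 and 1.36 RPM in Gel, and rose by 1.14 ± 0.26 (limma adjusted p = 0.000263). The strongest region, chr2:127967522-127968334, had 61.0 and 54.5 RPM in CuNZ@Gel, against 145 and 136 RPM in Gel, and fell by 1.27 ± 0.07 (limma adjusted p = 1.63e-19). Both calls held with the trend removed, at 0.95 and -0.56. Separation between groups was several times the spread of either pair of replicates.

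Near each of the other 3 genes, the largest called rise was smaller than that of Pmaip1 or Bcl2l11. Near Bcl2, chr1:106611930-106612607 had 8.73 and 6.48 RPM in CuNZ@Gel, against 3.50 and 2.72 RPM in Gel, and rose by 1.06 ± 0.22 (limma adjusted p = 7.41e-05). The strongest Bcl2 region, chr1:106641462-106642569, had 20.5 and 22.1 RPM in CuNZ@Gel, against 28.7 and 35.3 RPM in Gel, and fell by 0.56 ± 0.12 (limma adjusted p = 0.000102). The rise kept its call with the trend removed and the fall lost it. A weak Bcl2 region not called before was then lower, at -0.78 (limma adjusted p = 0.0162). Bcl2 thus still had 1 region higher and 1 lower. Near Bbc3, chr7:16034772-16035452 had 19.3 and 18.7 RPM in CuNZ@Gel, against 13.4 and 13.9 RPM in Gel, and rose by 0.44 ± 0.14 (limma adjusted p = 0.00689), a call lost without Gel replicate 1 (adjusted p = 0.0781). The region chr7:16046606-16048129 had 76.8 and 74.6 RPM in CuNZ@Gel, against 140 and 143 RPM in Gel, and fell by 0.89 ± 0.07 (limma adjusted p = 1.13e-15). That fall was at -0.14 (limma adjusted p = 0.112) with the trend removed and was not called. Near Mcl1, chr3:95572604-95572803 had 3.28 and 5.15 RPM in CuNZ@Gel, against 2.16 and 2.04 RPM in Gel, and rose by 0.73 ± 0.26 (limma adjusted p = 0.0181). That Mcl1 call ended with the trend removed and when Gel replicate 1, Gel replicate 2 or CuNZ@Gel replicate 2 was left out. The Mcl1 region chr3:95565728-95567000 had 75.4 and 72.8 RPM in CuNZ@Gel, against 144 and 146 RPM in Gel, and fell by 0.96 ± 0.07 (limma adjusted p = 1.26e-16). That fall kept its call with the trend removed, at -0.20 (limma adjusted p = 0.0160). Mcl1 then had 2 regions higher and 2 lower.

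**Figure D4:**
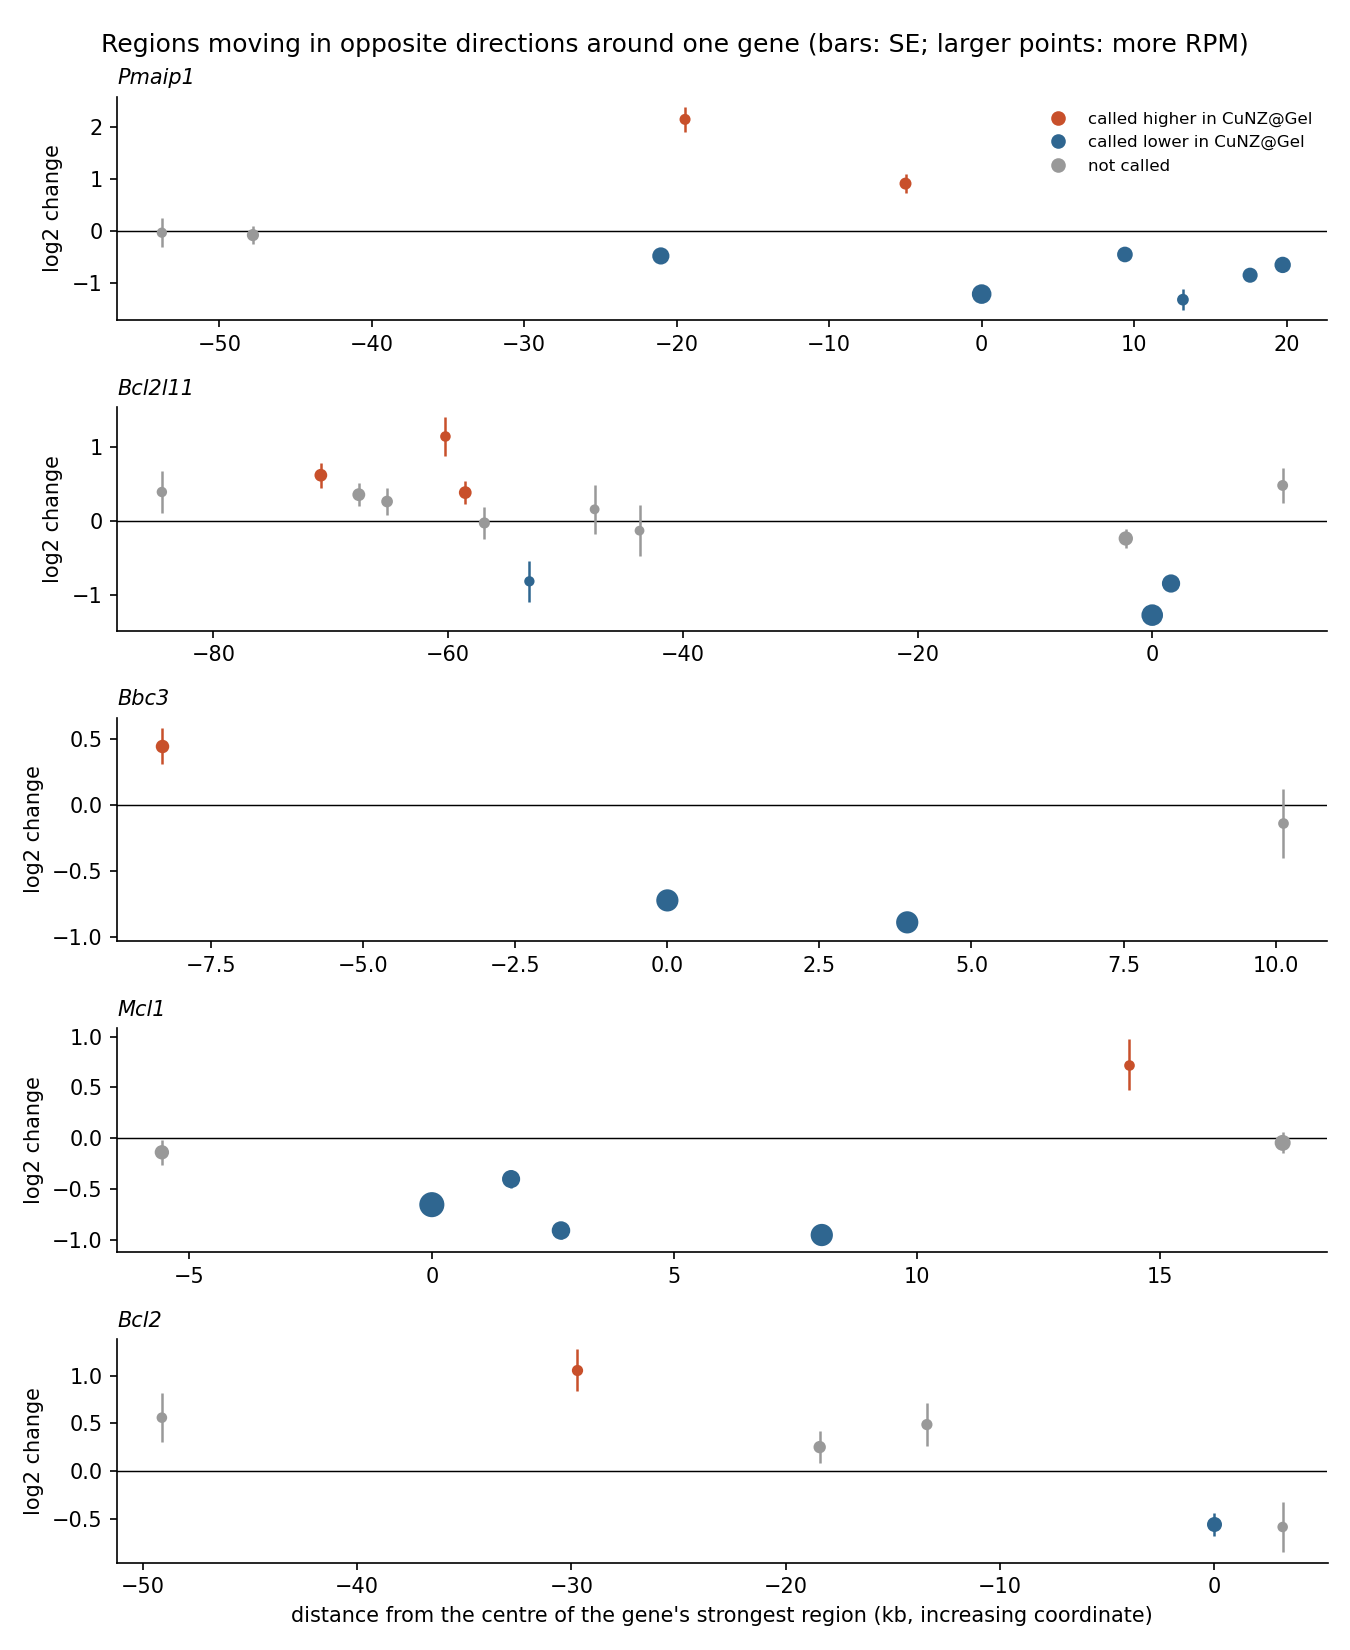
Log2 change (CuNZ@Gel minus Gel, SE bars) of each region of the 5 genes by its distance in kb from the gene's strongest region, with larger points for more RPM. The called rises are small points away from the strongest region, and at Pmaip1 and Bcl2l11 several lie on the side of lower coordinates.

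Within a library, the ratio of the rising to the falling region of a gene needs no scaling, although these pairs were picked for moving apart, so the separation is fixed by that choice. At Pmaip1 the rising region held 215% and 218% of the RPM of the falling one in CuNZ@Gel, against 7.32% and 12.5% in Gel, so the order of the regions turned round between the groups. At Bcl2l11 the share was 7.16% and 8.32% in CuNZ@Gel, against 1.09% and 1.00% in Gel. At Bcl2 it was 42.6% and 29.3% in CuNZ@Gel, against 12.2% and 7.70% in Gel. At Mcl1 it was 4.34% and 7.08% in CuNZ@Gel, against 1.504% and 1.40% in Gel, and at Bbc3 25.12% and 24.998% in CuNZ@Gel, against 9.56% and 9.77% in Gel. Pmaip1 alone crossed 100%.

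**Figure D5:**
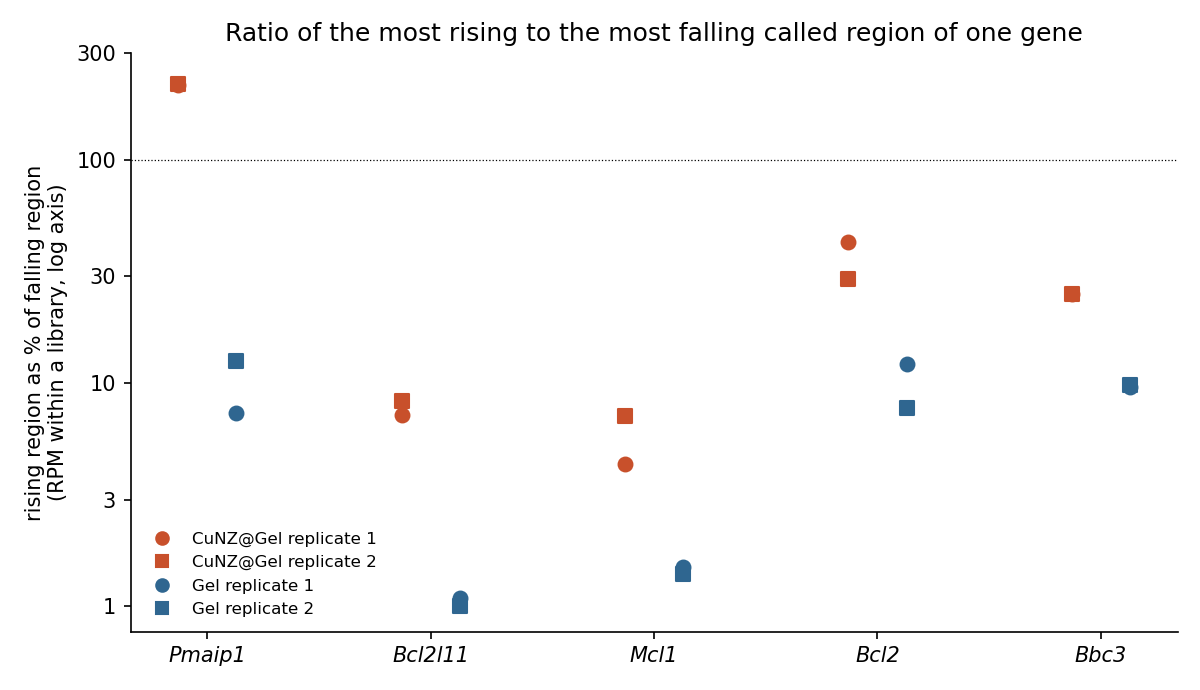
RPM of the most rising called region as a percentage of the most falling called region of the same gene, per library (log axis), CuNZ@Gel left of Gel. The Pmaip1 points of CuNZ@Gel, at 215% and 218%, are the ones above the dotted line at 100%.

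The authors' peak lists, called on each library alone, put a peak in 37 and 44 of the 58 member regions in CuNZ@Gel and in 48 and 48 in Gel. Over all 80929 regions the shares with a peak were 50.9% and 64.2% in CuNZ@Gel and 75.1% and 72.4% in Gel. All 4 libraries had a peak in 33 member regions, beside 39.6% of all regions. Both CuNZ@Gel libraries and no Gel library had one in 2, beside 1849 of all 80929, and both Gel libraries and no CuNZ@Gel library in 6, beside 8940 of all. Of the 2 with peaks in CuNZ@Gel alone, both named after their values were seen, one was the second rising Pmaip1 region, with authors' fold enrichments of 4.25 and 6.72 in CuNZ@Gel. The other, chr2:127965301-127966053 near Bcl2l11, had folds of 3.10 and 2.52 there, yet its RPM was 24.0 and 16.4 in CuNZ@Gel and 24.7 and 22.5 in Gel (change -0.23, limma adjusted p = 0.164). A peak present in one group was thus not always a region of higher RPM. The Pmaip1 region with the largest rise had a peak in CuNZ@Gel replicate 1 and in no other library. The largest called rises of Bcl2l11 and Mcl1 had a peak in CuNZ@Gel replicate 2 and in no other library. The weak falling Pmaip1 region had peaks in Gel alone. Regions were formed from the peaks of all 4 libraries, so such regions entered through the group where they are high. Their p-values do not allow for that. The CuNZ@Gel libraries also held fewer reads, and the part of depth in these counts was not tested.

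Other genes of the pathway were counted by list, beside 36.1% of all genes lower and 20.5% higher. In the rest of the BCL-2 family, 6 of 13 genes tested were lower and 3 higher (median -0.21). Hrk, which encodes a BH3-only protein, had 15.2 and 16.9 RPM in CuNZ@Gel against 6.01 and 5.82 RPM in Gel and rose by 1.30 ± 0.16, and Bcl2l14 rose by 0.36 ± 0.09. Bad, a BH3-only gene controlled by growth factor signalling at the protein level, fell by 0.66 ± 0.05. That call was lost with the trend removed from regions (0.00116, limma adjusted p = 0.988) and kept with it removed from gene sums (-0.22, limma adjusted p = 0.00122). Bcl2a1b fell by 0.92 ± 0.20, but it has near-identical paralogs that can share reads, so its value is uncertain. With the trend removed from regions, 5 of these 13 were higher and 1 lower, beside 20.7% and 15.4% of all genes.

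Among genes of the apoptosome, caspases and their inhibitors, 11 of 15 were lower and 0 higher (median -0.44). Casp9, the initiator caspase of this pathway, fell by 0.75 ± 0.06, and Diablo, whose product antagonises caspase inhibitors, fell by 0.72 ± 0.09. Of transcription factors and protein regulators of the family, 13 of 17 were lower and 0 higher (median -0.39), led by Ddit3, the stress factor CHOP, at -1.14 ± 0.05 and Dynll1, a dynein light chain that binds BIM, at -1.08 ± 0.06. Of mitochondrial outer membrane partners and carriers, 9 of 10 were lower and 0 higher (median -0.60), with Slc25a5 at -0.98 ± 0.08 and Tomm20 at -0.79 ± 0.13. With the trend removed from regions these 3 lists had 2, 5 and 3 genes lower and 1, 2 and 0 higher. Over all genes 15.4% were then lower and 20.7% higher. Casp9 at -0.02 and Diablo at -0.17 lost their calls. Ddit3 at -0.19, Dynll1 at -0.37, Slc25a5 at -0.61 and Tomm20 at -0.61 kept theirs. From gene sums, Ddit3 was at -0.68 and Dynll1 at -0.69. With the trend removed from gene sums, Casp9 at -0.34 (limma adjusted p = 9.7e-05) and Diablo at -0.39 (limma adjusted p = 0.000502) stayed lower.

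The genes whose values over the 4 libraries lay nearest those of Mcl1, by Euclidean distance of log2 gene values, were Cic (0.0367), Socs3 (0.121) and Mnt (0.174). Nearest Bcl2 were Tnfsf12 (0.0449), Tmco4 (0.0605) and Rrp1b (0.109).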

How the data were processed

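ATAC-seq values of 4 libraries were analysed. The submitters' processing notes name MACS2 2.2.8, Picard 2.27.5, SAMtools 1.17, Bowtie2 2.3.4.3, fastp 0.23.1 and build GRCm39, with no roles or settings. The authors deposited log2 values per region with its nearest gene per the file headers, read here as log2(RPM + 1), since 100% of low values were within 0.1 of a whole number of reads once reversed. The totals so recovered are reads in regions, not sequenced reads. The deposited peak lists give a fold enrichment (a ratio), -log10 values of a p-value and a q-value, and a score; these are the authors' and were used to describe peaks. Merging the lists (gap of at most 1 base) gave 80929 regions in the order of the value tables, which placed each value on GRCm39, counted from 1. No GRCm39 annotation was used, so regions are known by nearest gene and not by gene structure.

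A region, or the sum of a gene's regions, was kept where 2 libraries reached 0.71 reads per 1000000 reads in regions (10 reads in a library of median size) and the total was 15 reads or more. Kept regions and gene sums were tested with limma 3.58.1 (two-sided, trend on mean level, Benjamini-Hochberg threshold 0.05, R 4.3.3) across 77014 regions and 25900 genes, with 2 against 2 libraries. The pseudocount of 1 understates changes of low values. The method was tested on simulated data drawn without a trend of change with level. That test therefore cannot judge how the trend affects the calls here. Alternatives covered scaling, filters, pseudocounts, voom, the gene summary, a replicate block, leaving out each library and peak thresholds.

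Members and lists were chosen with earlier results of these data known. All members are named; coordinates follow a rule (each gene's strongest region, and its largest called rise and fall where it has both), as do pathway genes (the 2 largest called rises and falls per list) and the 3 nearest patterns of Mcl1 and Bcl2. Exceptions are stated where they occur. Of the 8 members with a RefSeq promoter window, 5 had exactly 1, and the 3 printed are among them.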

Additional observations from a re-analysis of the deposited data

How the results depend on the processing

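Gene counts called lower (9 with deposited scaling) were 5 with totals of reads in regions, 2 with cyclic loess on regions, 6 with cyclic loess on gene sums, 10 with background scaling and 5 with the mean of region log2 values; counts called higher (0) were 1 with totals and 2 with cyclic loess on gene sums. Over all 25900 genes, 4840 were lower and 8889 higher with totals, and 5264 lower and 5080 higher with the mean of region log2 values. Region counts called higher (8) were 15 with totals, 1 with background scaling, 10 with cyclic loess and 5 with the stricter filter, and counts called lower (21) were 13, 43, 9 and 20. Over all 77014 regions, 9155 were lower and 23142 higher with totals. With the stricter filter, 16244 of 48533 regions were lower and 7425 higher. That filter asked for 30 reads in a library of median size, in all 4 libraries. The largest called rises of Pmaip1, Bcl2l11 and Mcl1 did not pass it, so they were not tested there. Leaving out each library in turn kept the change of every member gene except Bcl2 below 0. The largest called rise of each of the 5 genes with opposite calls stayed above 0. A lone library is then assumed to vary like the other group, so counts called are not listed. Calls of named genes and regions that ended are stated above.

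Some changes turned positive. With cyclic loess Mcl1 was at 0.0438, Bcl2 at 0.0455, Bcl2l1 at 0.0164, Bid at 0.0161, Bak1 at 0.0710 and Bad at 0.00116; with cyclic loess on gene sums Bcl2 was at 0.27, Bid at 0.20 and Bak1 at 0.0117; with totals Bcl2 was at 0.22 and Bid at 0.0618. The mean of region log2 values put Bcl2 at 0.20 and Bcl2l11 at 0.0364. Leaving out each library in turn put Bcl2 between -0.170 and 0.0594, above 0 when replicate 2 of either group was left out. Among strongest regions, cyclic loess gave 0.23 for Mcl1, 0.0303 for Bcl2l1, 0.0320 for Bbc3, 0.18 for Bid and 0.19 for Bak1, and totals gave 0.0723 for Bid. Background scaling turned the rising regions of Bbc3 to -0.55 and Mcl1 to -0.0490, and Bcl2l14 to -0.67. Cyclic loess removes the trend with level by construction; the cause of the other turns was not tested.

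The labels do not say whether the replicate numbers pair the libraries. Deviations of same-numbered libraries correlated at 0.04 across genes, which cannot settle whether they were handled together. With a replicate block 9 genes were lower and 0 higher, and 22 regions were lower and 9 higher. Over all 25900 genes, 9671 were then lower and 5600 higher. Over all 77014 regions, 17273 were lower and 16697 higher. Median-of-ratios scaling, no filter and both other pseudocounts gave the same 4 counts as deposited scaling. Voom gave 9 regions higher and 20 lower, beside 16700 and 16436 of all 77014 regions. The sizes of weak regions moved with the pseudocount: at 5 the largest rises were 1.11 at Pmaip1, 0.55 at Bcl2l11, 0.63 at Bcl2 and 0.37 at Mcl1, and the weak falling Pmaip1 region was at -0.86, all still called. Weak regions carry the least reads, as with the 15 and 20 reads of the rising Pmaip1 region in Gel, and set the limit of what can be called.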
